A study of Drosophila melanogaster with 12 samples.

Results

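The ribosomal protein genes described here encode the proteins of the cytosolic ribosome in SL2 cells, an established *Drosophila* line that descends from embryonic blood cells and behaves much like macrophages. They were chosen by name, as all genes whose symbol in the platform annotation starts with RpL or RpS, leaving out kinases and taking for each gene the probe set whose mean over the 12 arrays was highest. This gave 41 genes of the 11982 with a probe set of their own. RefSeq lists 92 such symbols, and the other 51 are not named by a probe set of their own in the annotation and were not analysed here, nor was sta, the small-subunit protein whose symbol falls outside the rule. Of the 41 probe sets, 14 are of the type whose probes match more than 1 transcript, so copies of a gene may share signal in them.

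There were 4 groups of 3 biological repeats, and all cells received 12.5 µg/ml dsRNA for 4 days. The dsRNA was directed against Tis11, an RNA-binding protein that promotes mRNA decay (Tis11 kd), or against GFP as the control (GFP kd). One group of each kind also received 10 µg/ml lipopolysaccharide (LPS), a bacterial cell wall component, for 4 h before lysis. The annotation gives Tis11 no probe set of its own, and the strength of the knockdown is therefore not known from these arrays. The paper reports Tis11 knockdown by Northern blot and qPCR, done apart from the arrays. All 12 arrays come from a single cell line, and every group received dsRNA. In bulk RNA, fewer cells and less mRNA per cell cannot be told apart.

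The ribosome joins a small subunit, which reads the mRNA, to a large subunit, which forms the peptide bond. The proteins of each are needed in about equal amounts, and in growing cells their mRNAs are among the most abundant of all. The P-proteins RpLP0, RpLP1 and RpLP2 form the stalk of the large subunit, which recruits translation factors. *Drosophila* has second copies of several ribosomal protein genes, some of them known from the germline. RpL24-like, RpL7-like and RpLP0-like are not ribosomal proteins proper, since their yeast counterparts act in building the large subunit in the nucleolus.

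Values are log2 signals from RMA, the authors' normalization, which ran from 2.25 to 14.01 over all arrays. The signal of a probe set depends on its probes as well as on mRNA abundance, so levels of different genes are given but not ranked as amounts. The members fell into 3 groups by signal and role, a split made after their levels were seen. The 30 canonical members, 16 of the large subunit, 11 of the small subunit and the 3 stalk proteins, had means from 11.21 to 13.77, close to the top of the scale. The highest means were those of RpLP1 (13.77), RpS18 (13.70), RpL15 (13.62), RpL41 (13.61) and RpS26 (13.57). RpL24-like, RpL7-like and RpLP0-like had means of 11.58, 11.43 and 9.24. The remaining 8 were paralogs with means from 4.39 to 6.87, around the array medians of 5.05 to 5.22. Of the 100 probe sets with the highest means, 25 were members and 43 were annotated to a single gene at all. Markers of plasmatocytes, the macrophages of the fly, were measured for 7 of 7 genes, at 7.20 to 12.05. Those of other blood cells overlapped this range, with crystal cell markers at 3.44 to 9.55 and lamellocyte markers at 4.83 to 10.03. Of the germline markers, 8 of 9 were measured, at 3.23 to 9.08, with vas, bam, ovo, otu and osk at or under 4.37 and the piRNA pathway genes piwi, aub and AGO3 at 8.55, 9.08 and 7.43.

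**Figure D1:**
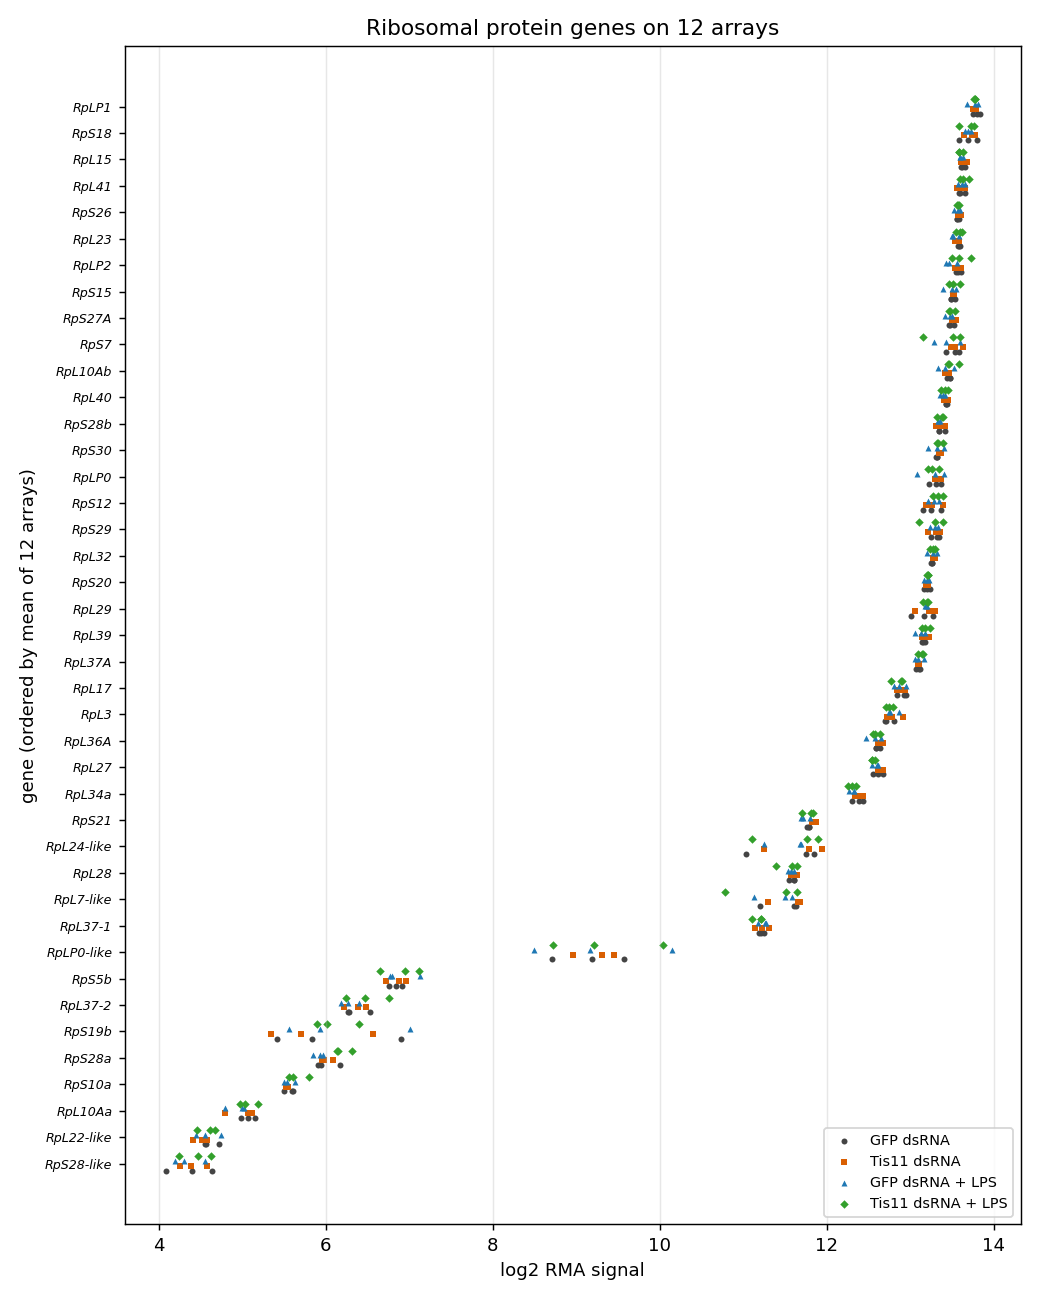
Log2 RMA signal (horizontal axis) of the 41 ribosomal protein genes on each of the 12 arrays, genes ordered by their mean (vertical axis), colours and symbols marking the 4 groups. The 30 canonical members have means from 11.21 to 13.77, and their groups mostly overlap. RpL24-like, RpL7-like, RpLP0-like and RpS19b spread widely within groups.

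RpS20, a small-subunit protein whose mRNA the study used as loading control and qPCR reference, was among the steadiest members. Its log2 signals were 13.16, 13.20 and 13.23 in GFP kd, 13.21, 13.19 and 13.22 in Tis11 kd, 13.19, 13.22 and 13.16 in GFP kd with LPS, and 13.21, 13.21 and 13.20 in Tis11 kd with LPS. The whole range over 12 arrays was 0.0711, and all groups overlapped. The log2 difference of Tis11 kd minus GFP kd without LPS was 0.01 (SE 0.08, 95% interval −0.18 to 0.20). With LPS it was 0.02 (SE 0.08, 95% interval −0.18 to 0.22). LPS minus no LPS gave −0.004 (SE 0.08) in GFP kd and 0.003 (SE 0.09) in Tis11 kd. RpL32, a large-subunit protein also common as a reference, had 13.25, 13.26 and 13.25 in GFP kd, 13.27, 13.28 and 13.29 in Tis11 kd, 13.27, 13.31 and 13.20 in GFP kd with LPS, and 13.27, 13.24 and 13.30 in Tis11 kd with LPS. Without LPS its 3 Tis11 kd values lay above the 3 GFP kd values, by a mean difference of 0.03 (95% interval −0.16 to 0.21), and with LPS the groups overlapped. The standard error from limma draws on all probe sets, and for these steady genes it exceeds their own spread.

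The spread between repeats was summarized for each gene as the SD within groups, pooled over the 4 groups. Over the 30 canonical members it ran from 0.0202 to 0.153 with a median of 0.0519, and 29 of 30 were under 0.1. RpS26 had the smallest, followed by RpS20 (0.0249), RpL15, RpL40, which is made as a fusion with ubiquitin, and RpL23. RpL32 ranked 7 of 41, at 0.0340. With arrays centred on their median the order and the size changed, with a median of 0.0773 and 7 of 30 at 0.1 or more. RpLP1 was then smallest at 0.0495, RpL23 had 0.0506, RpL40 0.0564, RpS26 0.0576 and RpS20 0.0623, and RpL29 and RpS12, at 0.0919 and 0.0869 as deposited, had 0.126 and 0.123. With repeated quantile normalization the median was 0.0494 and 28 of 30 were under 0.1, with RpL39 smallest at 0.0183 and RpS20 at 0.0274. With all probe sets of a gene averaged, RpL3 had an SD of 0.152 and RpS30 of 0.129. RpS7 had the widest spread of the canonical members as deposited, 0.153, and also under both scalings (0.148 and 0.172). Its signals were 13.43, 13.58 and 13.53 in GFP kd, 13.49, 13.54 and 13.63 in Tis11 kd, 13.60, 13.28 and 13.43 in GFP kd with LPS, and 13.60, 13.50 and 13.15 in Tis11 kd with LPS. The lowest RpS7 value was on a single array of each LPS group, at 13.28 and 13.15, while another array of each was at 13.60, and the groups overlapped.

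Since spread changes with signal, members were set beside other genes of the same level, as a description with no test. Between 13 and the top of the scale, the 22 members had a median SD of 0.0448, and 9 other named genes a median of 0.115. These 9 include eEF5, a translation factor gene, at 0.0458, close to the members, Rack1, whose protein sits on the small subunit, at 0.0843, the initiation factor gene eIF4A at 0.136 and the matrix gene SPARC at 0.253, and 0 of 9 were under the members' median. Another 46 probe sets of this level have no single gene in the annotation, and their median of 0.0502 was near that of the members. From 12 to 13, the median was 0.0551 for 5 members and 0.208 for 40 other named genes. From 11 to 12, the 5 members include RpL24-like and RpL7-like, and their median of 0.0723 compares with 0.240 for 218 other named genes. With arrays centred, the medians were 0.0771 for the members and 0.135 for the 9 genes from 13 up, and 0.0772 and 0.213 from 12 to 13, with 0 of the other named genes under the members' median in either. With repeated quantile normalization they were 0.0441 and 0.114, and 0.0652 and 0.199, with 1 of 9 and 4 of 40 under it. From 13 up, the 46 probe sets without a single gene had medians of 0.0721 with arrays centred and 0.0440 with repeated quantile normalization. These were no higher than the members' medians. From 12 to 13 and from 11 to 12, such probe sets had medians of 0.166 and 0.226 as deposited, above those of the members. The level bands and these comparisons under other scalings were chosen after the values were seen. The part that the upper end of the scale plays in the low spread was not tested.

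**Figure D2:**
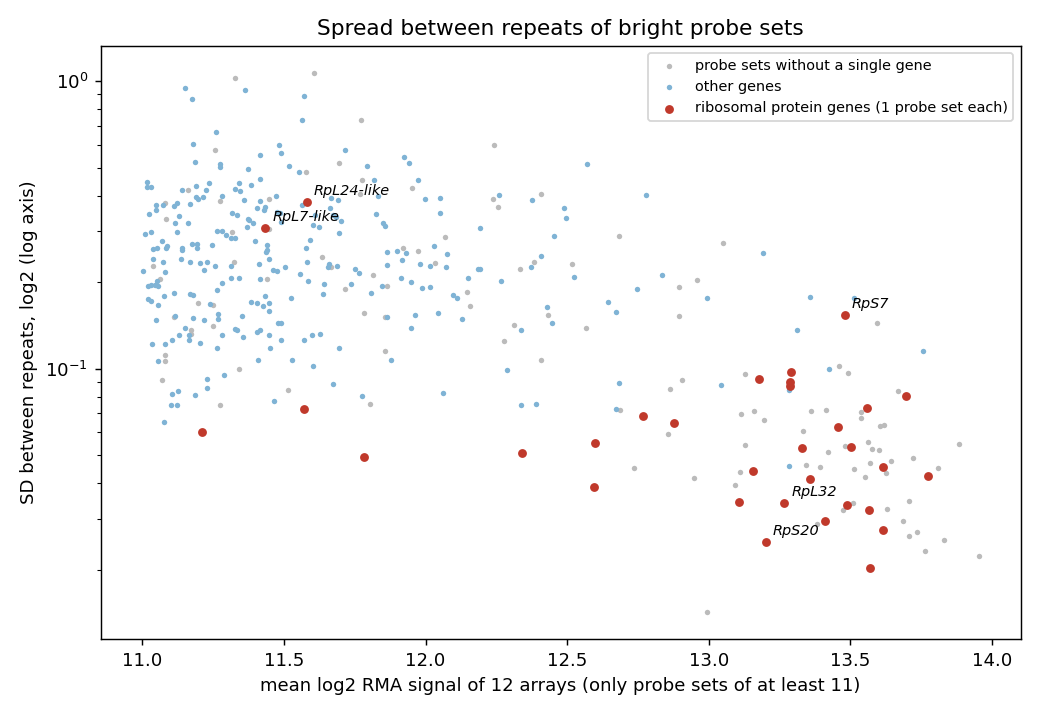
SD between repeats on a log axis (vertical, log2 units, pooled over the 4 groups of 3) against mean log2 RMA signal (horizontal) for probe sets averaging 11 or more, with ribosomal protein genes in red, other genes in blue and probe sets without a single gene in grey. Canonical members lie in the lower part, RpS20 at 0.0249 and RpL32 at 0.0340, with RpS7 highest of them at 0.153. From 13 up, many probe sets without a single gene lie there too. RpL24-like at 0.379 and RpL7-like at 0.308 lie among the other genes.

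The first comparison asked which mRNAs depend on Tis11 in unstimulated cells. By limma, 0 of 41 members passed the threshold, an adjusted p (Benjamini-Hochberg) under 0.05, in either direction (0% of all probe sets higher and 0% lower), and 0 of 41 had an unadjusted p under 0.05, against 1.1% of all probe sets. The methods' t-test, with the same adjustment, and rank products also called 0 members, where they called 0 and 17 of all probe sets. The paper names no adjustment for its t-test, and unadjusted t-test results were not counted here. The median log2 difference of the 41 was 0.01 against −0.001 for all probe sets, and 28 were above 0, against 49.4% of all. The canonical members ran from −0.02 for RpL17 to 0.07 for RpL3, and 30 of 30 had a 95% interval inside ±0.5 on the log2 scale, the size of change the study asked of mRNAs it called sensitive to Tis11. The widest bounds among them were −0.23 and 0.31. A difference over 0.5 in size was seen for 0 of 41 members and 0.405% of all probe sets. Of all probe sets, 78.1% had such an interval, and of those at 11 or higher on average, 74.3%. The groups did not overlap for 3 members, all higher in Tis11 kd, against 2.58% of all probe sets higher and 1.89% lower. These are RpL32, RpS30, at 13.34, 13.37 and 13.35 against 13.31, 13.30 and 13.32, and RpS21, at 11.82, 11.83 and 11.87 against 11.76, 11.79 and 11.79. Their differences were 0.03, 0.04 and 0.06, each smaller than its SE of 0.08, and none passed (adjusted p = 1.00 by limma).

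Beyond the canonical members, the highest difference without LPS was that of RpL24-like, 0.12 (SE 0.26), then RpLP0-like, 0.08 (SE 0.23). The lowest were those of the paralogs RpS19b, −0.17 (SE 0.44), RpL22-like, −0.11 (SE 0.10), and RpL10Aa, −0.08 (SE 0.12). In each of these the groups overlapped. The intervals of RpL24-like, RpLP0-like and RpS19b extended beyond ±0.5, so a difference of that size is not excluded for them. The threshold of limma was passed by 0 probe sets here, although 0.405% differed by over 0.5 in size.

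With LPS, Tis11 kd minus GFP kd again gave 0 of 41 members past the threshold by limma (0% of all probe sets in each direction). A single member, RpS28a, had an unadjusted p under 0.05 by limma, against 2.6% of all probe sets. The adjusted t-test and rank products called 0 members, where they called 0 and 2 of all probe sets. The median was 0.02, as over all probe sets (0.02), and 29 members were above 0 against 55.3% of all. Differences over 0.5 in size were seen for 0 of 41 members and 0.613% of all probe sets. The canonical members ran from −0.06 for RpL37-1 to 0.12 for the stalk protein gene RpLP2, and 30 of 30 intervals lay inside ±0.5, against 58% of all probe sets. RpLP2 was at 13.58, 13.50 and 13.73 in Tis11 kd with LPS and 13.56, 13.46 and 13.42 in GFP kd with LPS, and the groups overlapped. The lowest differences were RpL7-like at −0.10 (SE 0.25), RpS19b at −0.07 (SE 0.37) and RpL37-1. After RpS28a, the highest were RpL37-2, a copy of the large-subunit gene RpL37-1, at 0.20 (SE 0.15), and RpL10Aa at 0.13 (SE 0.11). RpL37-2 was at 6.46, 6.76 and 6.24 in Tis11 kd with LPS and 6.40, 6.18 and 6.27 in GFP kd with LPS, and the groups overlapped. The intervals of 6 members extended beyond ±0.5, RpL24-like, RpL7-like, RpLP0-like, RpS19b, RpL37-2 and RpS28a.

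RpS28a is a copy of a small-subunit gene, and whether its probes also bind mRNA of its near relative RpS28b was not tested. RpS28a gave the largest difference of any member in this comparison. Its log2 signals were 6.15, 6.31 and 6.13 in Tis11 kd with LPS, and 5.93, 5.85 and 5.96 in GFP kd with LPS. Without LPS they were 5.95, 5.98 and 6.09 in Tis11 kd and 5.94, 5.90 and 6.17 in GFP kd. The 3 arrays of Tis11 kd with LPS thus lay above all 3 of GFP kd with LPS and above all 3 of Tis11 kd without LPS, but the highest GFP kd array without LPS lay among them. The difference with LPS was 0.28 (SE 0.10, 95% interval 0.04 to 0.52), which did not pass over all probe sets (adjusted p = 1.00 by limma). It was the only member whose groups did not overlap here, against 7.77% of all probe sets higher and 1.97% lower. The difference without LPS was 0.0001 (SE 0.11), and the interaction, 0.28 (SE 0.14), did not pass either (adjusted p = 1.00 by limma). The other copy, RpS28b, had 13.32, 13.38 and 13.39 in Tis11 kd with LPS and 13.33, 13.36 and 13.34 in GFP kd with LPS, with overlapping groups.

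The LPS comparisons ask which mRNAs change within 4 h of stimulation. In GFP kd cells, 0 of 41 members passed by limma, where 0.0533% of all probe sets were called higher and 0% lower, and 0 of 41 had an unadjusted p under 0.05, against 1.67% of all. The median was −0.02 for members and −0.02 for all probe sets, with 12 members above 0 against 43.3% of all. No member differed by over 0.5 in size, against 1.52% of all probe sets. The canonical members ran from −0.10 for RpLP2 to 0.05 for RpL3, and 30 of 30 intervals lay inside ±0.5, against 66.4% of all probe sets. RpL40 was the only member with groups that did not overlap, against 2.15% of all probe sets higher and 4.34% lower. It had 13.42, 13.39 and 13.36 with LPS and 13.43, 13.43 and 13.44 without, a difference of −0.05 (SE 0.08). The outer members were RpL10Aa at −0.13 (SE 0.10) and RpS28a at −0.09 (SE 0.11) on the lower side, and RpS19b at 0.12 (SE 0.50), RpLP0-like at 0.11 (SE 0.44) and RpS5b at 0.06 (SE 0.13) on the upper.

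In Tis11 kd cells, LPS minus no LPS also gave 0 of 41 members past the threshold by limma, where 0.0799% of all probe sets were called higher and 0% lower, and 0 of 41 at an unadjusted p under 0.05, against 2.71% of all. The median was −0.004, against 0.01 for all probe sets, with 19 members above 0 against 53.7% of all. No member differed by over 0.5, against 2.09% of all probe sets. The canonical members ran from −0.14 for RpS7 to 0.05 for RpL10Ab, and 30 of 30 intervals lay inside ±0.5, against 61.2% of all probe sets, with the widest bound at −0.47 for RpS7. The groups did not overlap for 3 members, against 5.04% of all probe sets higher and 3.33% lower. RpL27 had 12.54, 12.54 and 12.57 with LPS and 12.67, 12.62 and 12.61 without, a difference of −0.08 (SE 0.09). RpS10a had 5.55, 5.80 and 5.61 with LPS and 5.54, 5.52 and 5.55 without, where the values of 5.55 differ before rounding, a difference of 0.12 (SE 0.11), and RpS28a differed by 0.19 (SE 0.11). RpL7-like, at −0.23 (SE 0.24), and RpS19b, at 0.23 (SE 0.31), had the largest differences in either direction, with overlapping groups. RpL34a, of the large subunit, was the next lowest after RpS7 at −0.09 (SE 0.10), and RpL37-2 the next highest after RpS28a at 0.13 (SE 0.16). The interaction of Tis11 kd and LPS passed for 0 of 41 members by limma (0% of all probe sets in each direction), and 0 had an unadjusted p under 0.05, against 1.99% of all. Its values were above 0 for 21 members and 52.2% of all probe sets, and over 0.5 in size for 0 members and 0.991% of all. The comparisons share groups, so they are not independent of each other.

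**Figure D3:**
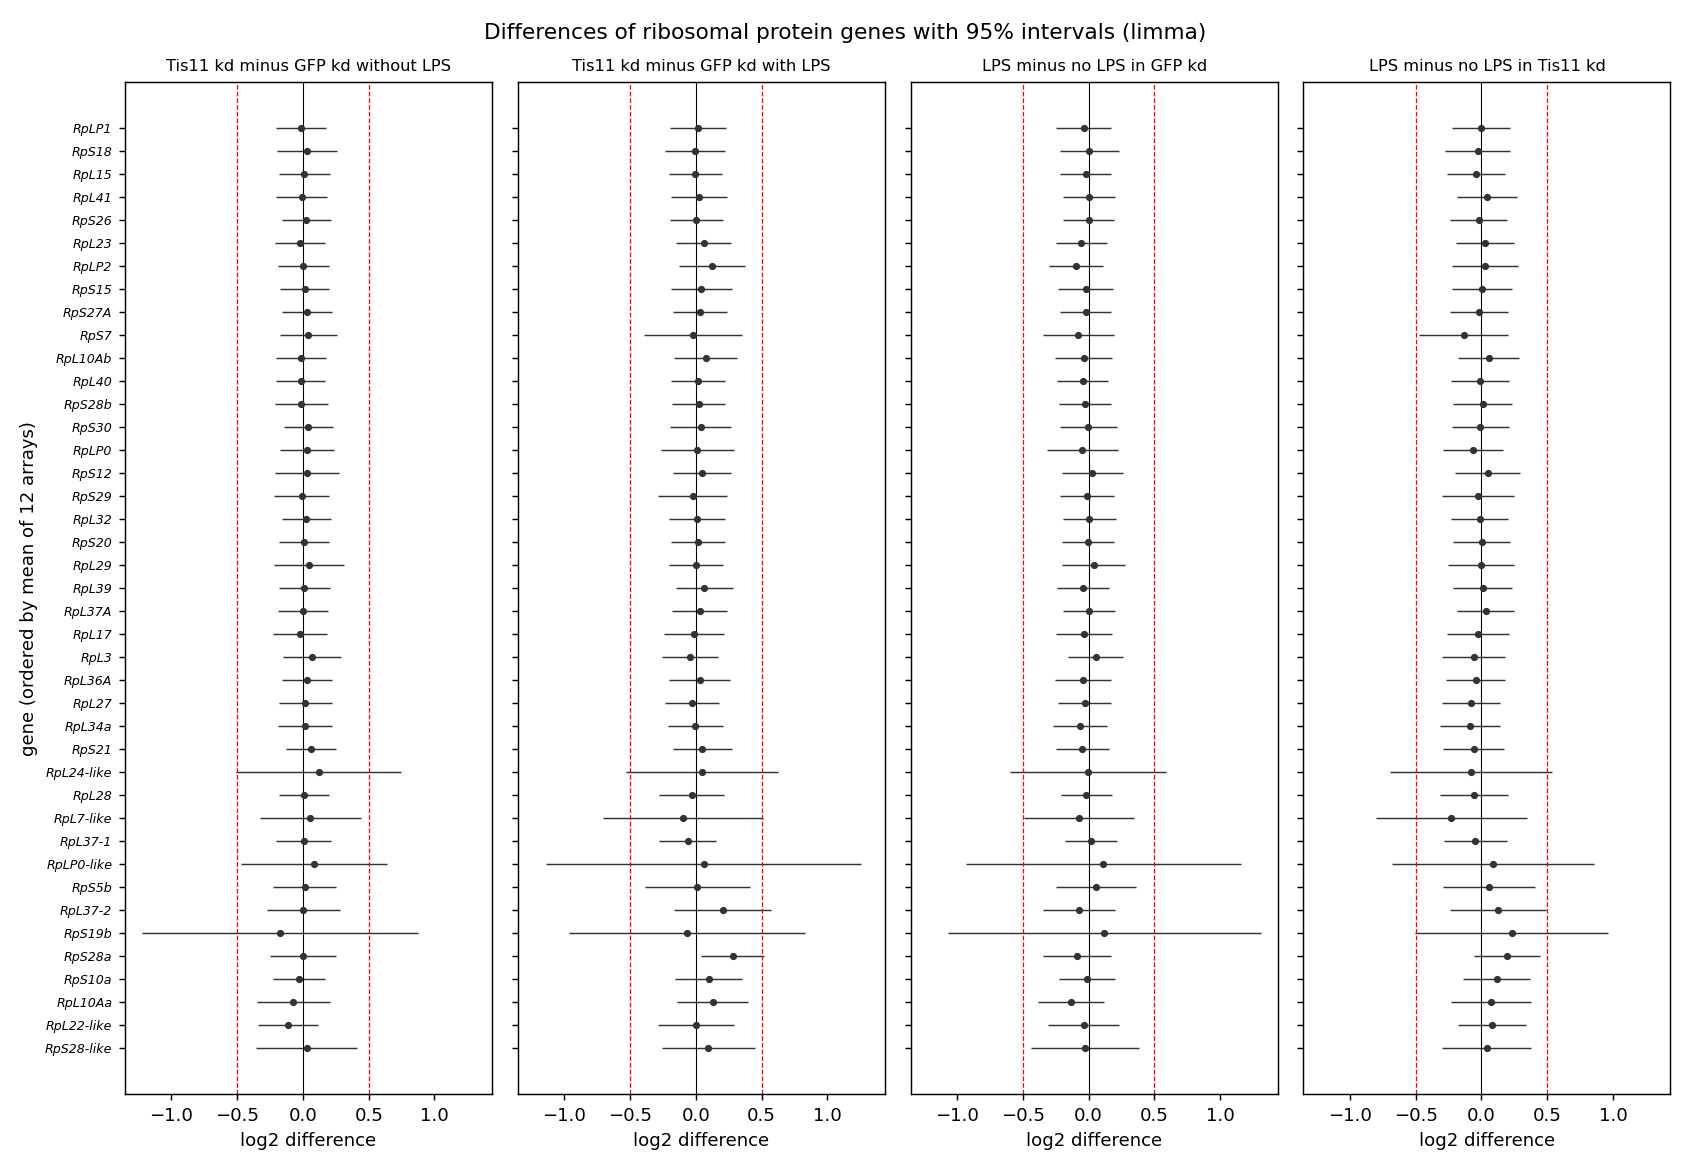
Log2 differences (horizontal axis) with 95% intervals from limma for the 41 members (vertical axis, ordered by mean signal) in the 4 comparisons, with dashed lines at ±0.5. All 30 canonical members stay inside the lines in each comparison, and the widest intervals belong to RpL24-like, RpL7-like, RpLP0-like and RpS19b, while with LPS those of RpL37-2 and RpS28a also cross the line at 0.5.

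The share of canonical members above 0 moved with the scaling, as did that of all probe sets, since centring shifts every gene of a comparison alike. Without LPS, 21 of 30 were above 0 after Tis11 kd as deposited (49.4% of all probe sets), 28 with arrays centred on their median (57.8%) and 16 when quantile normalization was repeated (49%). With LPS these counts were 20 (55.3%), 1 (34.7%) and 12 (51.2%). For LPS in GFP kd they were 9 (43.3%), 21 (56.9%) and 18 (46.3%), and for LPS in Tis11 kd 10 (53.7%), 0 (37.8%) and 15 (50.3%). No direction is therefore given for the canonical members as a group.

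The 8 paralogs with means under 8 had no detection call in the files, so whether they were expressed is not known from these values. For pairs with both copies measured, the 12 arrays gave means of 5.01 for RpL10Aa and 13.46 for RpL10Ab, 6.37 for RpL37-2 and 11.21 for RpL37-1, and 6.03 for RpS28a and 13.36 for RpS28b. RpS5b, RpS19b and RpL22-like, known from the fly germline, had means of 6.87, 6.05 and 4.57, RpS10a had 5.58 and RpS28-like 4.39. With LPS in Tis11 kd cells, 8 of 8 were above 0 with a median of 0.10, where 59.2% of probe sets that average under 8 were above 0. With arrays centred on their median 6 of 8 were above 0, and with repeated quantile normalization 7 of 8. In GFP kd cells 2 of 8 were above 0, where 40.3% of dim probe sets were, and 5 and 4 of 8 under these scalings. None of the 8 passed in either comparison. RpS19b varied most of all members, with an SD of 0.636. Its values were 5.41, 5.83 and 6.90 in GFP kd, 6.57, 5.34 and 5.70 in Tis11 kd, 5.56, 5.93 and 7.01 in GFP kd with LPS, and 5.89, 6.40 and 6.02 in Tis11 kd with LPS. The arrays of Tis11 kd with LPS lay between the extremes of the other groups, and the groups overlapped in each comparison.

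RpL24-like, RpL7-like and RpLP0-like, the genes related to yeast assembly factors, varied between repeats more than any canonical member, with SDs of 0.379, 0.308 and 0.591. RpLP0-like had 9.57, 9.18 and 8.70 in GFP kd, 8.95, 9.45 and 9.30 in Tis11 kd, 9.16, 10.15 and 8.49 in GFP kd with LPS, and 9.21, 8.72 and 10.04 in Tis11 kd with LPS. RpL24-like had 11.03, 11.75 and 11.84 in GFP kd, 11.94, 11.25 and 11.79 in Tis11 kd, 11.68, 11.24 and 11.69 in GFP kd with LPS, and 11.76, 11.89 and 11.10 in Tis11 kd with LPS. In every group the array with the highest RpLP0-like had the lowest RpL24-like. These arrays were replicate 1 of GFP kd, replicate 2 of Tis11 kd, replicate 2 of GFP kd with LPS and replicate 3 of Tis11 kd with LPS. RpL7-like was also lowest there, with 11.20, 11.29, 11.13 and 10.78 in that order.

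The 4 arrays were picked by RpLP0-like, and no other choice of 1 array per group was counted. On them, 10.8% of all probe sets were highest in all 4 groups and 10.9% lowest in all 4. Of the canonical members, 3 of 30 were highest there (RpL36A, RpLP0 and RpS15) and 4 of 30 lowest (RpL17, RpL37-1, RpS18 and RpS29), where 15.6% and 25% of all probe sets at 11 or higher were. Other genes of protein synthesis differed in this order. Of 22 ribosome biogenesis genes that are no members, 13 were highest on all 4 arrays and 2 lowest. Of 27 translation factor genes, 4 were highest and 15 lowest. Of the 22 biogenesis genes 21 averaged under 11, and of all probe sets averaging 8 or more 18.4% were highest on all 4 arrays and 20.4% lowest. This order was noticed in these data and is given without a test, and its cause was not tested.

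**Figure D4:**
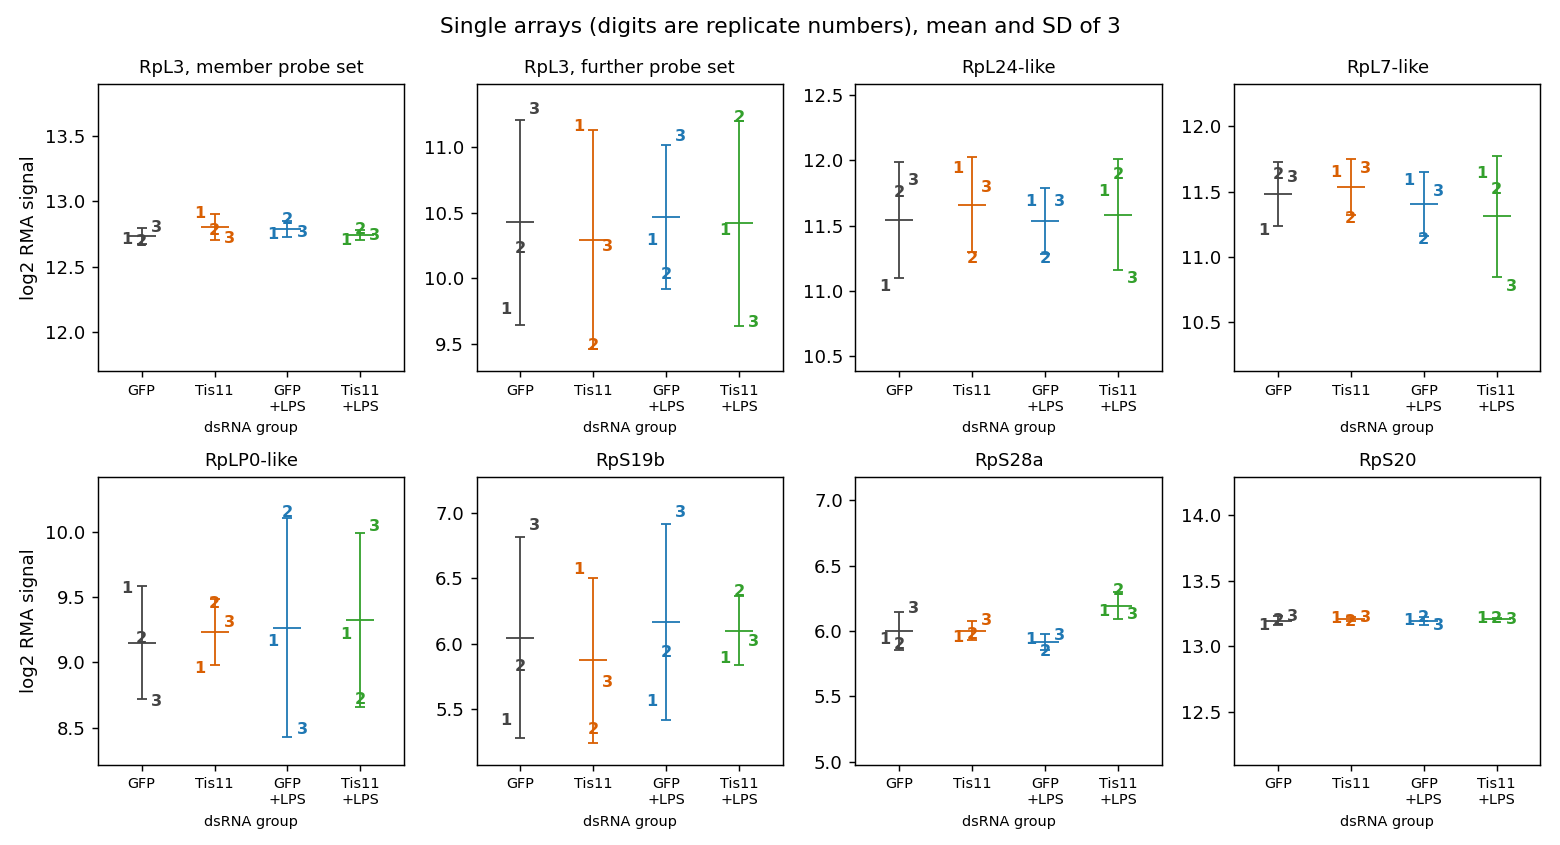
Log2 RMA signal (vertical axes, each spanning 2.2 units) of single arrays in the 4 groups (horizontal axes), each array drawn as its replicate number, with bars for mean ± SD of 3. RpLP0-like is highest where RpL24-like, RpL7-like and the further RpL3 probe set are lowest, while RpS20 and the member probe set of RpL3 hardly move.

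Beside the members, no translation factor and no ribosome biogenesis gene passed in any comparison by limma. The 27 of 34 translation factor genes measured had a median SD of 0.238, or 0.227 for the 17 of them at 11 or higher. The 22 biogenesis genes had a median SD of 0.385. Without LPS, 18 of the 22 were above 0 after Tis11 kd (median 0.08). Rio2 (RIOK2), a kinase of small-subunit maturation, was highest at 0.21 (SE 0.09). With LPS 6 of 22 were above 0 (median −0.05). For LPS in GFP kd, 21 of 22 were above 0 (median 0.22). Rio1 (RIOK1) was highest at 0.51 (SE 0.36) and Non1 lowest at −0.21 (SE 0.33). For LPS in Tis11 kd, 19 of 22 were above 0 (median 0.06). Over all probe sets 49.4%, 55.3%, 43.3% and 53.7% were above 0 in these 4 comparisons. With arrays centred on their median the counts were 20, 1, 21 and 11 of 22 in the same order. The shares of all probe sets were then 57.8%, 34.7%, 56.9% and 37.8%. In the interaction 0 of 22 were above 0 (median −0.14), against 52.2% of all probe sets. With arrays centred it was 0 of 22, against 31.7%. The SEs of the 22 in the interaction ran from 0.22 to 0.53. As 13 of them were highest on the same 4 arrays, the 22 genes do not count as independent observations. The arrays named above lie in all 4 groups, and their part in these counts was not tested. Of the translation factors, 6 of 27 were above 0 after Tis11 kd without LPS, 7 with LPS, 10 for LPS in GFP kd, 7 for LPS in Tis11 kd and 6 in the interaction. The shares of all probe sets were 49.4%, 55.3%, 43.3%, 53.7% and 52.2%. With arrays centred the translation factor counts were 12, 0, 14, 5 and 1. All probe sets shifted alike, to 57.8%, 34.7%, 56.9%, 37.8% and 31.7%. For LPS in GFP kd eIF6, a factor that keeps the subunits apart, was highest at 0.31 (SE 0.23) and the initiation factor gene eIF3a lowest at −0.27 (SE 0.19). Of 17 regulators of ribosomal protein synthesis, 12 were measured and none passed. The transcription factor genes Irbp18 and Max differed by −0.36 (SE 0.75) and 0.16 (SE 0.10) after Tis11 kd without LPS, the lowest and highest of the 12, and the SD of Irbp18 between repeats was 1.07. The RNA-binding protein gene larp, whose human relative binds ribosomal protein mRNAs, was lowest for LPS in Tis11 kd at −0.41 (SE 0.49). Its SD between repeats was 0.704.

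Further probe sets were available for 4 members. The member probe set of RpL3, a core protein of the large subunit, had a mean of 12.77 and an SD of 0.0682. A further RpL3 probe set had 9.76, 10.23 and 11.29 in GFP kd, 11.16, 9.49 and 10.24 in Tis11 kd, 10.28, 10.03 and 11.09 in GFP kd with LPS, and 10.36, 11.23 and 9.66 in Tis11 kd with LPS. Its SD of 0.747 exceeded that of any member, it was lowest in each group on the same 4 arrays, and its log2 differences ran from −0.13 (SE 0.51) to 0.12 (SE 0.51) in the 4 comparisons. The third RpL3 probe set, with a mean of 6.01, was highest on all 4 of these arrays. A second RpS29 probe set had a mean of 12.75 and an SD of 0.0609, much like the member probe set with 13.29 and 0.0899, and both were lowest on the 4 arrays. The further probe sets of RpS30, RpS7 and the third of RpS29 had means of 8.12, 6.02 and 3.24. No further probe set passed in any comparison by limma, and none differed from the member probe set by more than 0.5 in its log2 difference.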

How the data were processed

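Signals were measured on Affymetrix Drosophila Genome 2.0 arrays, and the authors deposited log2 values made with RMA (background correction, quantile normalization and a median-polish summary of probes). The sources used here do not say whether RMA was run on the 12 arrays at once. The values were used as deposited for 18769 probe sets, after removing 183 controls. Each comparison was fitted on its own 6 arrays by lmFit and eBayes of limma 3.58.1 (R 4.3.3), the interaction on all 12, with Benjamini-Hochberg adjustment over all probe sets. Spread was taken between the 3 biological repeats of a group, and their number limits the precision. An exact permutation test of 3 arrays against 3 cannot go below p = 0.1.

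Members and lists were chosen with earlier results of these data known. Named genes are RpL32, RpS20 and sta, the 3 highest and 3 lowest members of each comparison, the 5 highest and 5 lowest by level and by spread, and measured paralog pairs, and of lists the outermost genes. Added after their values were seen were RpS30, RpS21, RpL40, RpL27, RpS7, RpL29, RpS12, RpL39, eEF5, Rack1, eIF4A and SPARC. Genes named for their order over the arrays were added in the same way. Alternatives were the replicate block, all arrays in 1 fit, a minimum mean of 6, other scalings, an intensity trend, mean probe sets, the methods' t-test, rank products (9 pairwise differences, 100 permutations within arrays; the permutation scheme was changed after the counts of a first version were seen) and leaving out each array. The fits were also run on simulated data with known differences, drawn independently for each probe set. Many real probe sets shared an order over the arrays. The simulation thus gives no measure of how many differences these arrays would miss. Python 3.11.15 with matplotlib 3.10.9 made the figures.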

Additional observations from a re-analysis of the deposited data

How the results depend on the processing

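No member was called in any alternative run, the methods' t-test and rank products included, both of which were run for the 4 comparisons and not for the interaction. With a minimum mean of 6, 37 of the 41 members were tested. Over all probe sets, limma called 10 for LPS in GFP kd and 15 for LPS in Tis11 kd. The replicate numbers of the labels did not pair the arrays, since same-numbered arrays correlated from −0.76 to 0.82 in their deviations from the group means, and no more than 2 of 6 arrays in a comparison were best matched by their own number. With the replicate number as a block, 0 members and 13 and 4 probe sets were called in these LPS comparisons. Rank products called 17, 2, 39 and 61 probe sets in the 4 comparisons in the order of the report, with permutations within arrays. A first version, which permuted the pairwise differences independently, called many more probe sets and was replaced after its counts were seen, with 0 members called by either. The methods' t-test called 0, 0, 1 and 0 after Benjamini-Hochberg adjustment. Leaving out 1 array gave 0 to 14 calls for LPS in GFP kd and 6 to 26 for LPS in Tis11 kd.

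With arrays centred on their median, the median of the 41 members became −0.058 for Tis11 kd with LPS, −0.061 for LPS in Tis11 kd and −0.093 for the interaction. That of all probe sets moved with it, to −0.057, −0.043 and −0.087, since centring subtracts the same offset from every gene of a comparison, which also fixes the sign turns it gives. Of 634 alternatives for single named genes, 50 turned the sign and none was called. After centring, RpL32 was at −0.072 and RpS20 at −0.060 for Tis11 kd with LPS, and RpS20 was at 0.036 for LPS in GFP kd, −0.054 for LPS in Tis11 kd and −0.090 for the interaction. After repeated quantile normalization, RpS20 was at −0.020 and RpS28a at −0.0072 for Tis11 kd without LPS, RpL32 at −0.036 and RpS20 at −0.0089 with LPS, RpS20 at 0.0024 for LPS in GFP kd and RpL32 at 0.0051 for LPS in Tis11 kd. The cause of the turns under repeated quantile normalization was not tested.

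Leaving out each array in turn also turned signs. For Tis11 kd without LPS, RpL10Aa ran from −0.14 to 0.026, RpL24-like from −0.14 to 0.32, RpLP0-like from −0.14 to 0.29, RpS19b from −0.52 to 0.25, RpS20 from −0.0076 to 0.028 and RpS28a from −0.051 to 0.084. With LPS, RpL32 ran from −0.026 to 0.032, RpL7-like from −0.26 to 0.17 and RpS19b from −0.37 to 0.36. For LPS in GFP kd, RpL32 ran from −0.020 to 0.039, RpLP0-like from −0.33 to 0.50, RpS19b from −0.30 to 0.55, RpS20 from −0.022 to 0.013 and RpS5b from −0.058 to 0.13. For LPS in Tis11 kd, RpL32 ran from −0.030 to 0.0022, RpL37-2 from −0.0084 to 0.25, RpL7-like from −0.39 to 0.039, RpS19b from −0.035 to 0.58 and RpS20 from −0.0066 to 0.0079. For the interaction, RpL24-like ran from −0.28 to 0.18, RpL32 from −0.052 to 0.0059, RpL7-like from −0.32 to 0.11 and RpS20 from −0.010 to 0.025. RpS28a kept its sign with LPS, from 0.22 to 0.31, and in the interaction, from 0.20 to 0.33.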
